A study of Homo sapiens with 60 samples.

Results

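The human mitochondrial genome is a small circular DNA that carries 37 genes, all of which are described here, out of 60675 genes in the count table. They were chosen as every gene whose symbol starts with MT-, and they are all the genes that the annotation places on the mitochondrial chromosome. They comprise 2 ribosomal RNAs, 13 messenger RNAs and 22 transfer RNAs. Of these, 28 are read from the plus strand of the reference and 9 from the minus strand, namely MT-ND6 and 8 transfer RNAs.

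RNA was sequenced from HT29 cells, an established line from a human colorectal adenocarcinoma, kept for 24 h with a hot-water extract or with vehicle. The extracts came from processed aconite root (Aconiti Lateralis Radix Preparata), from bupleurum (Bupleuri Radix), from cimicifuga (Cimicifugae Rhizoma), from citrus peel (Citri Unshius Pericarpium), and from the herb mixtures Banhasasim-tang, Yijung-tang and Bojungikgi-tang. High, medium and low doses were 500, 100 and 20 µg/mL. Vehicle was 0.1% DMSO by the sample labels and 2% DMSO by the design text, which also speaks of lower top doses for extracts that slowed growth, while every high dose here has 500 µg/mL on its label. Vehicle and 6 extracts had 3 libraries per group, and Bojungikgi-tang had 1 library per dose. No label says that replicates were cultured separately, so the spread behind the p-values may be technical.

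Library totals lay between 10.35 and 40.05 M counts, with a median of 23.83 M. The first part of the sample codes is read here as a library set, which the labels do not define: vehicle alone, citrus peel with cimicifuga (set 5), bupleurum with aconite (set 6), Yijung-tang with Banhasasim-tang (set 7), and Bojungikgi-tang (set 8). A difference from vehicle is therefore also a difference between sets, whereas high against low dose is not. DMSO is recorded for the vehicle libraries and left blank for the extract libraries, so any solvent difference from vehicle cannot be told apart from the extract. All sample titles read BatchB. RN7SL2, a structural RNA without an A tail, was at 4.94 to 9.04 CPM (counts scaled to a common library total) in vehicle, 52.2 to 204.1 in aconite high, 68.4 to 119.1 in aconite low and 40.1 to 71.9 in bupleurum high. In set 5 it was at 66.4 to 113.8 CPM in all 6 libraries numbered replicate 3 and at 3.50 to 9.81 in the other 12, so it did not follow the sets alone. Its part in the differences from vehicle was not tested. Aconite high replicate 2 stood apart from the other libraries of its group, with cytosolic ribosomal protein mRNAs 0.50 above the group mean (median log2 deviation), and results that rest on it are given with and without it. The epithelial markers EPCAM (452.1 to 688.6 CPM) and KRT8 (5117 to 7284 CPM) were present in all 60 libraries. Among markers of other cell types, the leukocyte gene PTPRC did not pass 0.126 CPM, COL1A2 of fibroblasts was at 0 in 56 libraries and SNAP25 of neurons in 60, but LYZ, COL1A1, LUM, PECAM1 and TUBB3 were above 0 in all 60. LYZ was the highest of them and set the summed level of the 4 leukocyte markers, 1700 to 1821 CPM in vehicle, 1562 to 1652 in aconite low and 1176 to 1671 in aconite high, and its part in the results was not tested. The 6 fibroblast, 4 endothelial and 2 neural markers summed to at most 2.74, 2.73 and 3.51 CPM in any library.

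Both strands of mitochondrial DNA are transcribed as long precursors from promoters in the control region, and most messenger and ribosomal RNAs are released when the transfer RNAs that lie between them are cut out. All genes on the plus strand are therefore carried by the same kind of precursor, and their steady levels differ through termination, processing and decay. The ribosomal RNAs lie nearest to the promoter of that precursor, and MTERF1 binds DNA within MT-TL1, the transfer RNA gene just after them. Most of the mature messenger and ribosomal RNAs receive short A tails, which complete the stop codon of several messenger RNAs. The proteins encoded are subunits of respiratory complexes I (MT-ND genes), III (MT-CYB) and IV (MT-CO genes) and of ATP synthase (MT-ATP6 and MT-ATP8), and the 12S (MT-RNR1) and 16S (MT-RNR2) ribosomal RNAs build the mitochondrial ribosome that translates them.

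The sequences below are from GENCODE release 29 transcripts on GRCh38. Whether the features they show bear on the changes with aconite was not tested. MT-TL1 (chromosome M, 3230 to 3304, plus strand) is shown whole because it lies between the ribosomal RNAs, which rose at the high dose of aconite, and the messenger RNAs, most of which fell there.
MT-TL1, whole gene: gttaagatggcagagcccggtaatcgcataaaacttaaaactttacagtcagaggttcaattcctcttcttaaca
The ribosomal RNA genes carried the largest changes among the members, and for an mRNA library their A content is shown. Capitals mark the longest encoded run of A, 6 bases in MT-RNR1 (window 968 to 1023) and 7 in MT-RNR2 (window 2432 to 2488), against 8 in MT-ND5, the longest of the messenger RNAs.
MT-RNR1, longest A run: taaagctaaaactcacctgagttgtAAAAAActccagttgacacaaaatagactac
MT-RNR2, longest A run: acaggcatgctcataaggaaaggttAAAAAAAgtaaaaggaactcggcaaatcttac
Among the 13 messenger RNAs, 7 end in a whole stop codon in the DNA and 6 need the A tail to complete it. The last bases of 4 of them are shown with the part of the stop codon in the DNA in capitals, since MT-ND4 fell most with aconite, MT-ND1 follows MT-TL1, and MT-ND6 is the messenger RNA of the minus strand.
MT-ND4, last 30 bases: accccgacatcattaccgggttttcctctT
MT-ND1, last 30 bases: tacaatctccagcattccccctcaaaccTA
MT-CO1, last 30 bases: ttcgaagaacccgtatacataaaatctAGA
MT-ND6, last 30 bases: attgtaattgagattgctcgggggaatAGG
The reading frames of MT-ATP8 and MT-ATP6 share 46 bases, and those of MT-ND4L and MT-ND4 share 7, in capitals below. Each pair lies on a shared RNA, and reads from the shared bases were divided between the genes by the counting program, so the values within a pair are not independent.
MT-ATP8, whole gene: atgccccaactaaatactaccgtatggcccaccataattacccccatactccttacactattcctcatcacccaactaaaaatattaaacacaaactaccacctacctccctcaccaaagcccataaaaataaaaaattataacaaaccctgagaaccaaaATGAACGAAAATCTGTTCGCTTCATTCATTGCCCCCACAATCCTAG
MT-ND4L, last 60 bases: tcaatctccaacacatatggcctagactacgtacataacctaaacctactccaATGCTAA

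The 22 transfer RNAs were almost absent from the counts. They are 59 to 75 bases long, shorter than the 100-base reads, and together gave 43 counts over the 60 libraries, of which MT-TM, the methionine transfer RNA, and MT-TA, the alanine transfer RNA, had 11 each. Another 5 had 1 to 8 counts, and 15 were at 0 in all libraries, where a count of 0 allows up to 3 counts in 1429.3 M, or 2.10e-07% (counting error only). None passed the filter on low counts, so every test below concerns the 2 ribosomal and 13 messenger RNAs, of 207 to 1812 bases, each of which was counted in all 60 libraries and tested.

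In vehicle, 9.46% ± 0.70 (SD, n = 3) of all counts came from the mitochondrial genome, and 12.5% ± 0.5 of these from the ribosomal RNAs. Per kilobase of gene, MT-CO3 (complex IV) had the highest level at 18260 ± 2551 CPM per kb, followed by MT-CO2 at 14690 ± 2235, MT-ATP6 at 11440 ± 1373 and MT-CO1 at 11370 ± 532. MT-ND4, MT-CYB, MT-RNR2 and MT-ND3 came next, between 7681 and 6364 CPM per kb, then MT-ND1, MT-ND2, MT-ND4L and MT-ATP8 between 4156 and 2894. The lowest were MT-ND5 at 1797 ± 99.8, MT-RNR1 at 1389 ± 90.2 and MT-ND6, on the minus strand, at 901.3 ± 384.9 CPM per kb. Of the 14 pairs of neighbours in this order, the 3 vehicle libraries lay apart without overlap in 4: MT-CO2 above MT-ATP6, MT-CO1 above MT-ND4, MT-ND3 above MT-ND1, and MT-ND5 above MT-RNR1. By group means, genes of the same precursor thus differed by more than 10 times in captured level per kilobase. The part of capture in this order was not tested.

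With aconite at the high dose, counts of both ribosomal RNAs were higher and those of most messenger RNAs lower. The libraries were made with an mRNA kit, so all levels given above and below are those of captured RNA. Whether the amount of RNA or its capture changed was not tested. The ribosomal RNAs made up 77.4% ± 2.6 of mitochondrial counts (SD, n = 3) at the high dose and 22.6% ± 0.3 at the medium dose. In the other 54 libraries, vehicle, aconite low and all other extracts, this share lay between 10.2% and 14.1%. The whole mitochondrial genome took 15.5% ± 1.3 of all counts at the high dose, while the messenger RNAs together took 2.76% to 4.07% of all counts, against 7.60% to 8.91% in vehicle and 6.43% to 10.8% in the 54 libraries. These shares are descriptions of the libraries and carry no test. From the share of the whole genome in bulk RNA, the number of mitochondrial genomes per cell and the amount of RNA per genome cannot be told apart. Shares give no number of cells. The ribosomal and most messenger RNAs of this 1 genome moved in opposite directions, and the cause was not tested.

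**Figure D1:**
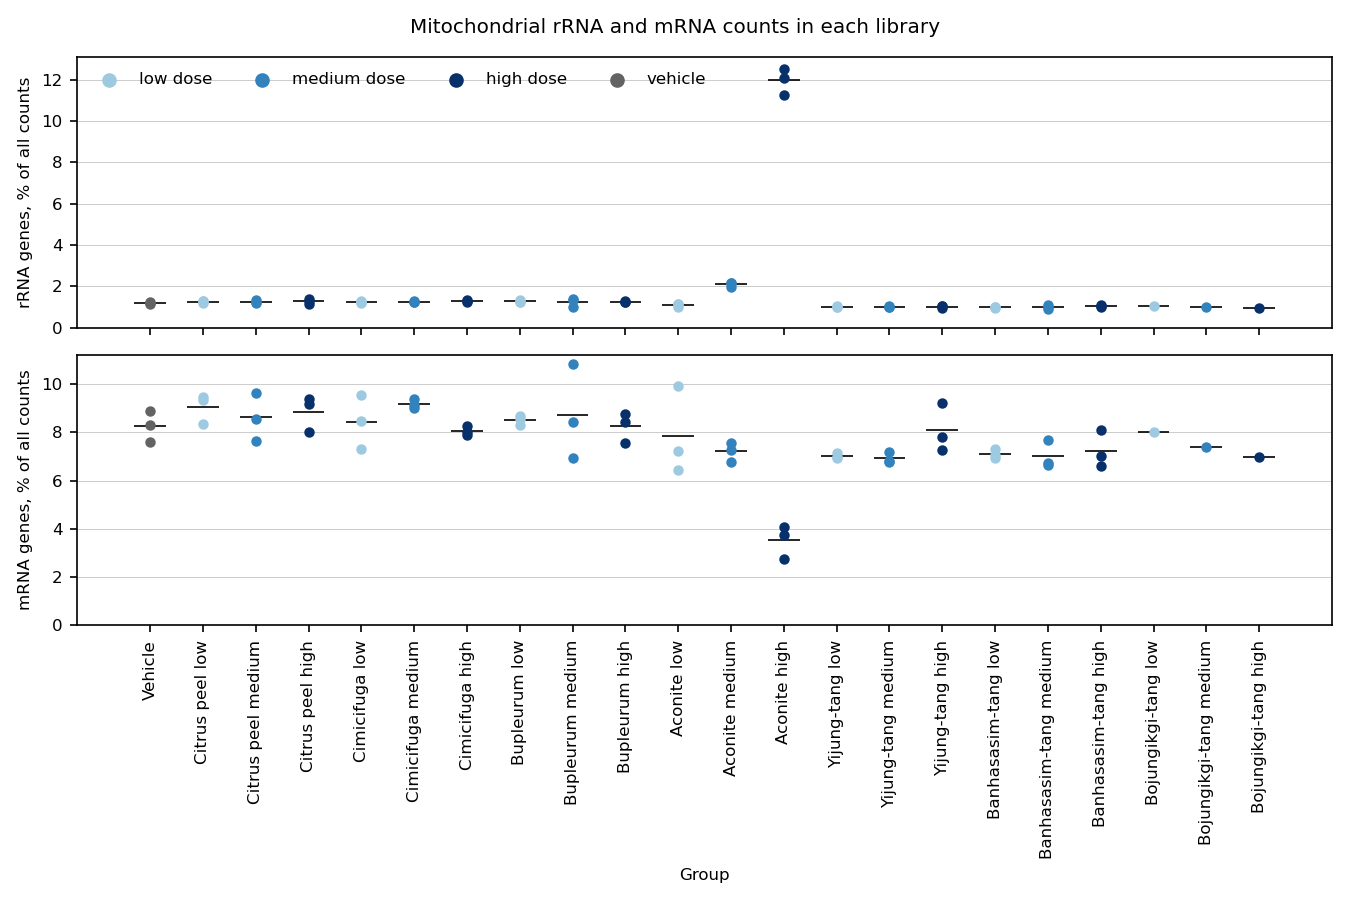
Share of all counts in mitochondrial rRNA genes (upper panel, %) and mRNA genes (lower panel, %) in each of 60 libraries, by group; points are libraries, bars group means, and colours the dose. The 3 aconite high libraries lie between 11.3% and 12.5% for rRNA, and the 3 aconite medium libraries, at 1.96% to 2.18%, also lie above the other 54, which end at 1.40%.

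MT-RNR1, the 12S ribosomal RNA of the small subunit (chromosome M, 648 to 1601, plus strand), had 31991, 32699 and 29361 CPM in aconite high replicates 1 to 3. In vehicle it had 1423, 1263 and 1288 CPM. Every aconite high library lay more than 20 times above every vehicle library. The fitted log2 fold change was 4.56 ± 0.12 (SE), or 23.7-fold with 3 libraries per group (quasi-likelihood test of edgeR, Benjamini-Hochberg adjusted p = 1.05e-31). MT-RNR2, the 16S ribosomal RNA of the large subunit (1671 to 3229, plus strand), had 106686, 107847 and 91959 CPM against 11148, 10047 and 10513 in vehicle. Its log2 fold change was 3.27 ± 0.10, or 9.67-fold (edgeR adjusted p = 1.66e-29). Across all genes tested, 21 had a larger log2 fold change than MT-RNR1 and 39 a larger one than MT-RNR2. Both lie on the same precursor, with only the valine transfer RNA between them, yet they rose unequally: the count ratio of MT-RNR2 to MT-RNR1 was 7.98 ± 0.16 in vehicle, 5.45 ± 0.17 in aconite medium and 3.26 ± 0.11 in aconite high, and 7.44 to 11.1 in the 54 libraries outside these aconite groups. Without aconite high replicate 2 the log2 fold changes were 4.53 and 3.22.

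Both ribosomal RNAs also rose at the medium dose, and neither passed the test at the low dose. The comparisons of the 3 doses share the vehicle libraries. MT-RNR1 had 3429, 3472 and 2996 CPM at the medium dose, a log2 fold change of 1.32 ± 0.11 against vehicle (edgeR adjusted p = 5.16e-13), and MT-RNR2 had 18796, 18303 and 16771 CPM, a log2 fold change of 0.76 ± 0.09 (edgeR adjusted p = 4.00e-08). All 3 libraries of the medium dose lay above all vehicle libraries for both genes. At the low dose MT-RNR1 had 1179, 1211 and 1035 CPM, with a log2 fold change of -0.21 ± 0.10 (edgeR adjusted p = 0.358), and MT-RNR2 had 10308, 10122 and 8705 CPM, with -0.12 ± 0.09 (edgeR adjusted p = 0.571). All low-dose libraries lay below vehicle for MT-RNR1, and the groups overlapped for MT-RNR2.

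**Figure D2:**
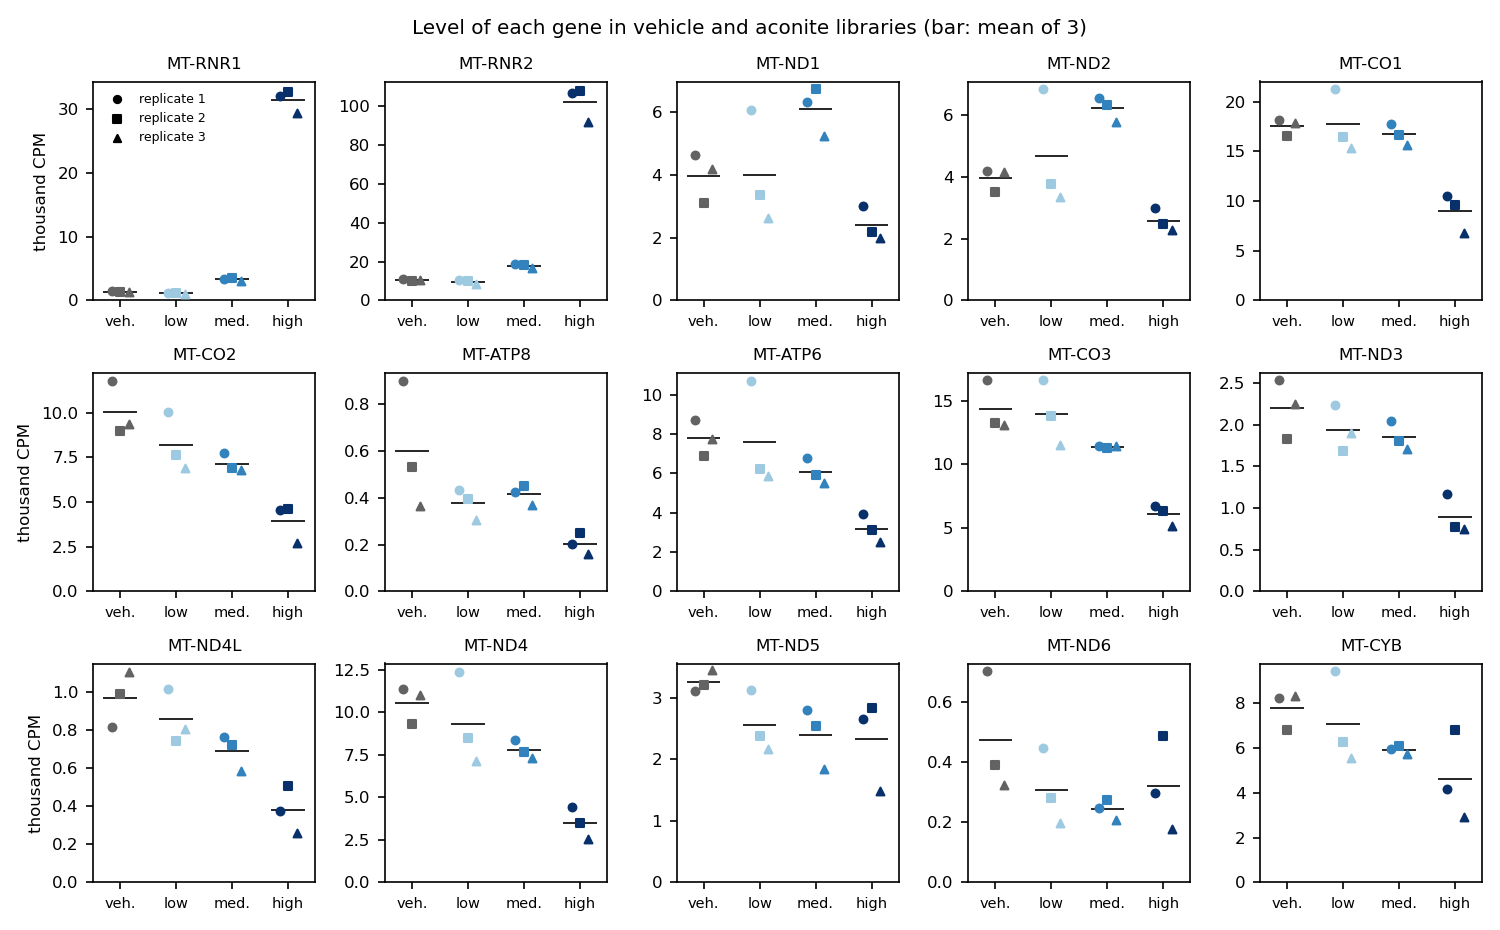
Level (CPM divided by 1000, linear axes from 0) of the 15 tested genes in the 3 vehicle libraries and the 3 libraries of each aconite dose; symbols are replicates and bars group means. Both rRNAs rise at the medium and high dose, MT-ND1 and MT-ND2 are highest at the medium dose by mean, and the third replicate of aconite high is the lowest of its group for all 13 mRNAs.

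Among the messenger RNAs, 11 of 13 fell at the high dose against vehicle and none rose. With the ribosomal RNAs this makes 13 of 15 members called, 2 higher and 11 lower, against 15.7% of all genes tested in this comparison (8.47% higher and 7.18% lower). The median log2 fold change of the messenger RNAs was -1.24, beside 0 over all genes. All 3 aconite high libraries lay below all 3 vehicle libraries for 11 of the 13, a pattern that 11.1% of all genes showed.

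The complex I subunit MT-ND4 (10760 to 12137, plus strand) fell most, with 4441, 3510 and 2554 CPM in aconite high against 11367, 9339 and 11048 in vehicle. Its log2 fold change was -1.60 ± 0.17 (edgeR adjusted p = 4.84e-10), and only 0.588% of all genes fell further. MT-ND4L, the small subunit whose frame overlaps MT-ND4, had 375.7, 504.1 and 256.5 CPM against 813.6, 985.1 and 1105, a log2 fold change of -1.36 ± 0.21 (edgeR adjusted p = 9.73e-06). MT-ND3 (10059 to 10404), also of complex I, had 1163, 770.4 and 744 CPM against 2535, 1823 and 2249, a log2 fold change of -1.30 ± 0.20 (edgeR adjusted p = 5.58e-06). For these 3 neighbouring genes every aconite high library lay below every vehicle library.

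The ATP synthase subunits fell by similar amounts. MT-ATP6 (8527 to 9207), part of the proton channel, had 3953, 3117 and 2518 CPM against 8747, 6877 and 7753, a log2 fold change of -1.29 ± 0.19 (edgeR adjusted p = 2.21e-06). MT-ATP8, the small subunit, had 202.6, 248.6 and 160.0 CPM against 898.7, 533.8 and 364.4, a log2 fold change of -1.56 ± 0.28 (edgeR adjusted p = 7.29e-05). Vehicle itself spread over more than a 2-fold range for MT-ATP8, the widest among the messenger RNAs together with MT-ND6.

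The 3 subunits of complex IV, cytochrome c oxidase, that the mitochondrial genome encodes fell as well. MT-CO2 (7586 to 8269) had 4566, 4619 and 2719 CPM against 11802, 8995 and 9348, a log2 fold change of -1.34 ± 0.16 (edgeR adjusted p = 1.43e-08). MT-CO3 (9207 to 9990) had 6752, 6306 and 5175 CPM against 16620, 13250 and 13069, a log2 fold change of -1.24 ± 0.14 (edgeR adjusted p = 2.69e-09). MT-CO1 (5904 to 7445) had 10524, 9573 and 6794 CPM against 18170, 16607 and 17823, a log2 fold change of -0.97 ± 0.11 (edgeR adjusted p = 9.52e-09). MT-CO1, the gene nearest to the ribosomal RNAs among the 3, thus had the smallest change of them, and all aconite high libraries lay below all vehicle libraries for each.

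The remaining messenger RNAs changed less. MT-CYB, cytochrome b of complex III (14747 to 15887), had 4177, 6813 and 2907 CPM against 8247, 6785 and 8340, a log2 fold change of -0.75 ± 0.19 (edgeR adjusted p = 0.00374). Replicate 2 of aconite high overlapped the vehicle libraries here, and without it the value was -1.15 (edgeR adjusted p = 1.70e-05), while without replicate 3 it was -0.50 (edgeR adjusted p = 0.0579). MT-ND1 (3307 to 4262) had 3003, 2189 and 1994 CPM against 4640, 3099 and 4181, a log2 fold change of -0.73 ± 0.23 (edgeR adjusted p = 0.0245). MT-ND2 (4470 to 5511) had 2977, 2480 and 2260 CPM against 4185, 3519 and 4137, a log2 fold change of -0.62 ± 0.20 (edgeR adjusted p = 0.0300).

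For these 2 complex I subunits, which are the messenger RNAs nearest to the ribosomal RNAs, the call rested on single libraries. MT-ND1 no longer passed without vehicle replicate 1 (-0.60, adjusted p = 0.121), vehicle replicate 3 (-0.70, 0.0647), aconite high replicate 2 (-0.68, 0.0770) or aconite high replicate 3 (-0.61, adjusted p = 0.105), all by edgeR. MT-ND2 no longer passed without the same libraries, with values of -0.57, -0.59, -0.60 and -0.53 and edgeR adjusted p of 0.0945, 0.0783, 0.0765 and 0.112.

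MT-ND5 and MT-ND6 did not pass. MT-ND5 (12337 to 14148, plus strand), a proton-pumping subunit of complex I, had 2660, 2837 and 1486 CPM against 3108, 3201 and 3457, a log2 fold change of -0.48 ± 0.18 (edgeR adjusted p = 0.0590). Its groups did not overlap, and without aconite high replicate 1 or 2 it passed, at -0.59 (edgeR adjusted p = 0.0393) and -0.66 (edgeR adjusted p = 0.0214). MT-ND6 (14149 to 14673), the only messenger RNA of the minus strand, had 298.2, 489.2 and 176.9 CPM against 703.5, 390.6 and 325.6, a log2 fold change of -0.56 ± 0.30 (edgeR adjusted p = 0.221). Its groups overlapped, and without aconite high replicate 2 the value was -1.0 (edgeR adjusted p = 0.0284). The sources used here do not say whether counting used the strand of the reads, so reads of the long plus-strand precursor opposite MT-ND6 may be among its counts. Leaving out aconite high replicate 2 left the count of called members at 13, 2 higher and 11 lower, with MT-ND5 and MT-ND6 in and MT-ND1 and MT-ND2 out.

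The spread used by the test matters to these calls. With only vehicle and aconite high in the model, 6 members were called: both ribosomal RNAs, MT-ND4, MT-CO3, MT-ATP6 and MT-ND3. MT-CO2 (-1.35, edgeR adjusted p = 0.0511), MT-ND4L (-1.36, edgeR adjusted p = 0.0582), MT-CO1 (-0.97, edgeR adjusted p = 0.0712), MT-ATP8 (-1.56, edgeR adjusted p = 0.0914), MT-ND2, MT-ND1 and MT-CYB then failed, the last 3 with adjusted p from 0.137 to 0.366. DESeq2 called MT-ND5 besides (-0.48, adjusted p = 0.0404).

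**Figure D3:**
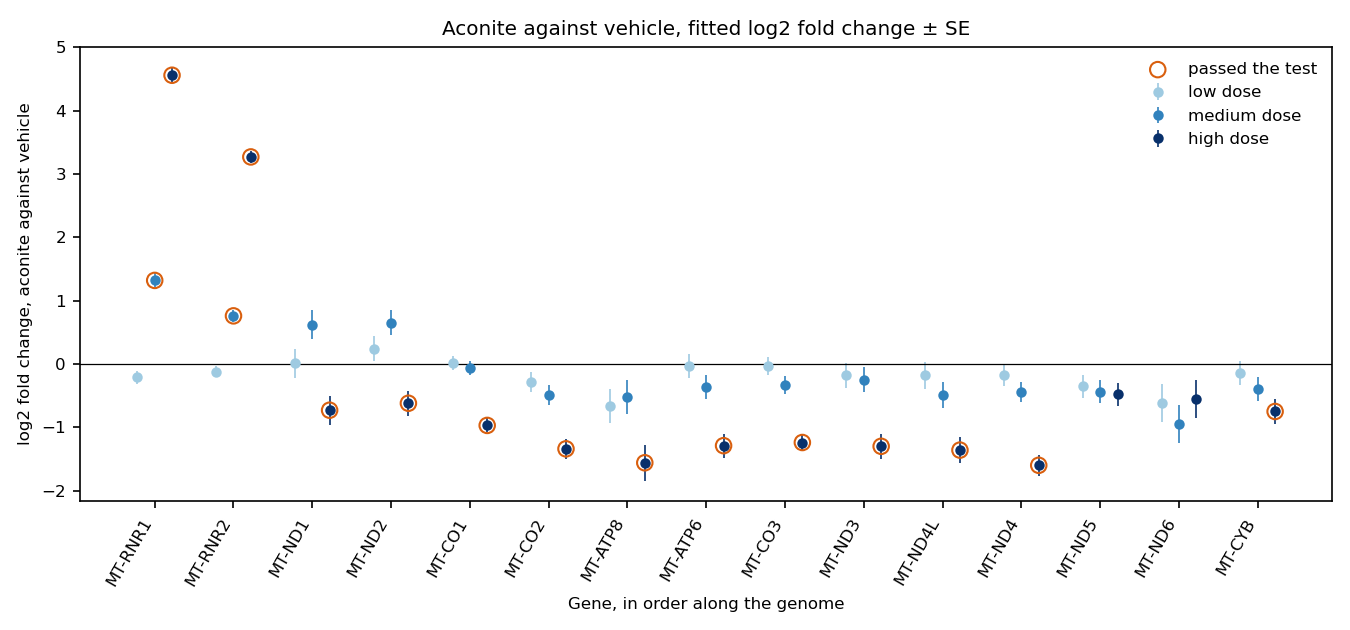
Fitted log2 fold change against vehicle (points, bars ± SE) for the 15 tested genes in genome order at the 3 aconite doses; orange rings mark genes past edgeR adjusted p of 0.05. At the high dose the 2 rRNAs are at 4.56 and 3.27 and the 13 mRNAs between -1.60 and -0.48.

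At the medium dose 2 of 15 members, the ribosomal RNAs, were called against vehicle, beside 4.49% of all genes, and 11 of 15 had an unadjusted p under 0.05. None of the 13 messenger RNAs was called by edgeR, and their log2 fold changes ran from -0.95 to 0.65 with a median of -0.40. MT-ND1 had 6317, 6739 and 5233 CPM, above all vehicle libraries, with a log2 fold change of 0.62 ± 0.23 (edgeR adjusted p = 0.119). MT-ND2 had 6533, 6308 and 5765 CPM, also above all vehicle libraries, with 0.65 ± 0.20 (edgeR adjusted p = 0.0522). They were the only messenger RNAs of the medium dose without overlap above vehicle, while 8 of the 13 lay without overlap below it. Over all genes, 14.5% lay without overlap above and 13.3% below. MT-ND6 was lowest relative to vehicle, at 249.3, 275.5 and 209.6 CPM and a log2 fold change of -0.95 ± 0.30 (edgeR adjusted p = 0.0605), and it passed without vehicle replicate 3 (-1.17, edgeR adjusted p = 0.0296). DESeq2 called MT-ND2 (0.65, adjusted p = 0.0398), MT-CO2 (-0.49, adjusted p = 0.0338) and MT-ND6 (-0.95, adjusted p = 0.0365) at this dose. With only vehicle and aconite medium in the model, edgeR called MT-ND2 (adjusted p = 0.00134), MT-CO2 (0.0225), MT-CYB (0.0237) and MT-ND4 (adjusted p = 0.0170). Without vehicle replicate 1, aconite high 2, Banhasasim-tang high 2 and bupleurum medium 2 together, MT-ND4L passed at the medium dose (-0.60, edgeR adjusted p = 0.0280). For MT-ND1 and MT-ND2 the medium dose lay above vehicle and the high dose below it, and medium against high dose was not tested.

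At the low dose 0 of 15 members were called by edgeR or by DESeq2, beside 1.58% of all genes called by edgeR, and 3 had an unadjusted p under 0.05. The messenger RNAs ranged from -0.66 (MT-ATP8) to 0.24 (MT-ND2), with a median of -0.18. Replicate 1 of this group had the highest value of all 13 messenger RNAs, such as 6059 CPM of MT-ND1 beside 3344 and 2632, and also of MT-RNR2, while for MT-RNR1 its 1179 CPM lay between the other 2. The lowest value of the messenger RNAs was in the library numbered replicate 3 for 13 of 13 in aconite high, 12 in aconite medium and 11 in aconite low.

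Along the plus strand, the log2 fold changes of the 12 messenger RNAs had a Spearman correlation with gene start of -0.16 at the high dose and -0.50 at both the medium and the low dose. These are descriptions over 12 genes of the same precursor, measured in the same libraries and against the same vehicle. The step between MT-RNR2 and MT-ND1, on either side of MT-TL1, was larger than any between neighbouring messenger RNAs at the high dose, from 3.27 to -0.73.

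High against low dose of aconite lies within 1 library set and does not use vehicle, but shares the aconite high libraries with the comparison above. MT-RNR1 was 4.78 ± 0.12 higher on the log2 scale, 27.5-fold (edgeR adjusted p = 2.19e-32), and MT-RNR2 3.40 ± 0.10, 10.5-fold (edgeR adjusted p = 4.26e-30). In all, 13 of 15 members were called, 2 higher and 11 lower, beside 10.8% of all genes (5.77% higher and 5% lower). For 9 of the 13 messenger RNAs all high-dose libraries lay below all low-dose libraries, as for 10.3% of all genes. The messenger RNAs that fell included MT-ND4 (-1.41 ± 0.16), MT-ATP6 (-1.25 ± 0.19), MT-CO3 (-1.20 ± 0.14), MT-ND4L (-1.18 ± 0.21), MT-ND3 (-1.12 ± 0.20), MT-CO2 (-1.05 ± 0.16) and MT-CO1 (-0.98 ± 0.11), with edgeR adjusted p from 7.34e-09 to 0.000133. With only these 2 groups in the model none of the messenger RNAs passed, with adjusted p from 0.0518 (MT-CO3) to 0.186 (MT-CO2) for these 7, while both ribosomal RNAs did. MT-ND5 (-0.13 ± 0.18, edgeR adjusted p = 0.694) and MT-ND6 (0.05 ± 0.30, edgeR adjusted p = 0.944) did not pass. Without aconite high replicate 2 their values were -0.30 (edgeR adjusted p = 0.468) and -0.39 (edgeR adjusted p = 0.586), so that the sign of MT-ND6 turned.

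The remaining 4 calls of this comparison, MT-ATP8 (-0.90), MT-ND2 (-0.86), MT-ND1 (-0.74) and MT-CYB (-0.61), each failed without aconite low replicate 1, the library with high messenger RNAs. Their values without it were -0.78, -0.46, -0.31 and -0.34, with edgeR adjusted p of 0.121, 0.151, 0.451 and 0.317. MT-ATP8 also failed without aconite low replicate 2 (-0.85, edgeR adjusted p = 0.0905) or aconite high replicate 3 (-0.73, edgeR adjusted p = 0.103). MT-ND1 also failed without aconite high replicate 2 (-0.69, edgeR adjusted p = 0.124) or 3 (-0.62, edgeR adjusted p = 0.101), and MT-CYB without aconite high replicate 1 (-0.54, edgeR adjusted p = 0.0748) or 3 (-0.35, edgeR adjusted p = 0.186). Without aconite high replicate 2, MT-CYB was at -1.01 (edgeR adjusted p = 0.000183). Over all alternatives the highest adjusted p was 0.145, 0.357, 0.531 and 0.638 in the order of the 4 genes.

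Bupleurum, of the same library set, had no member called between its doses. MT-RNR1 had 1238, 1243 and 1429 CPM at its high dose and 1324, 1192 and 1299 at its low dose, and 0 of 15 members were called by edgeR or DESeq2 between these doses, with 0 at an unadjusted p under 0.05 and 0.291% of all genes called by edgeR. The difference between the extracts was tested as the high-against-low change of aconite minus that of bupleurum. It passed for 9 of 15 members, 2 higher and 7 lower, beside 1.74% of all genes (0.977% higher and 0.764% lower). The difference was 4.74 ± 0.15 for MT-RNR1 (edgeR adjusted p = 1.04e-27) and 3.43 ± 0.13 for MT-RNR2 (edgeR adjusted p = 5.26e-25). Among the messenger RNAs it was -1.41 ± 0.23 for MT-ND4 (edgeR adjusted p = 7.15e-05), -1.16 ± 0.19 for MT-CO3 (edgeR adjusted p = 9.49e-05) and -0.92 ± 0.16 for MT-CO1 (edgeR adjusted p = 0.000205). MT-ATP6 (-1.23), MT-ND4L (-1.22), MT-ND3 (-1.06) and MT-CO2 (-1.01) also passed, with edgeR adjusted p from 0.00421 to 0.0328. Of these, MT-ATP6 failed without aconite low replicate 1 (-0.90, edgeR adjusted p = 0.0517), MT-ND4L without aconite low replicate 1 (-1.08), aconite high replicate 3 (-1.0), bupleurum low replicate 2 (-1.15) or bupleurum high replicate 3 (-1.16, adjusted p from 0.0522 to 0.0749 over these 4 by edgeR). MT-ND3 failed without aconite high replicate 2 or 3, aconite low replicate 1 or 3, bupleurum high replicate 1 or 3, or bupleurum low replicate 1 or 2, with values from -1.07 to -0.94 and edgeR adjusted p from 0.0578 to 0.114. With only these 4 groups in the model 3 members passed, both ribosomal RNAs and MT-CO3.

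**Figure D4:**
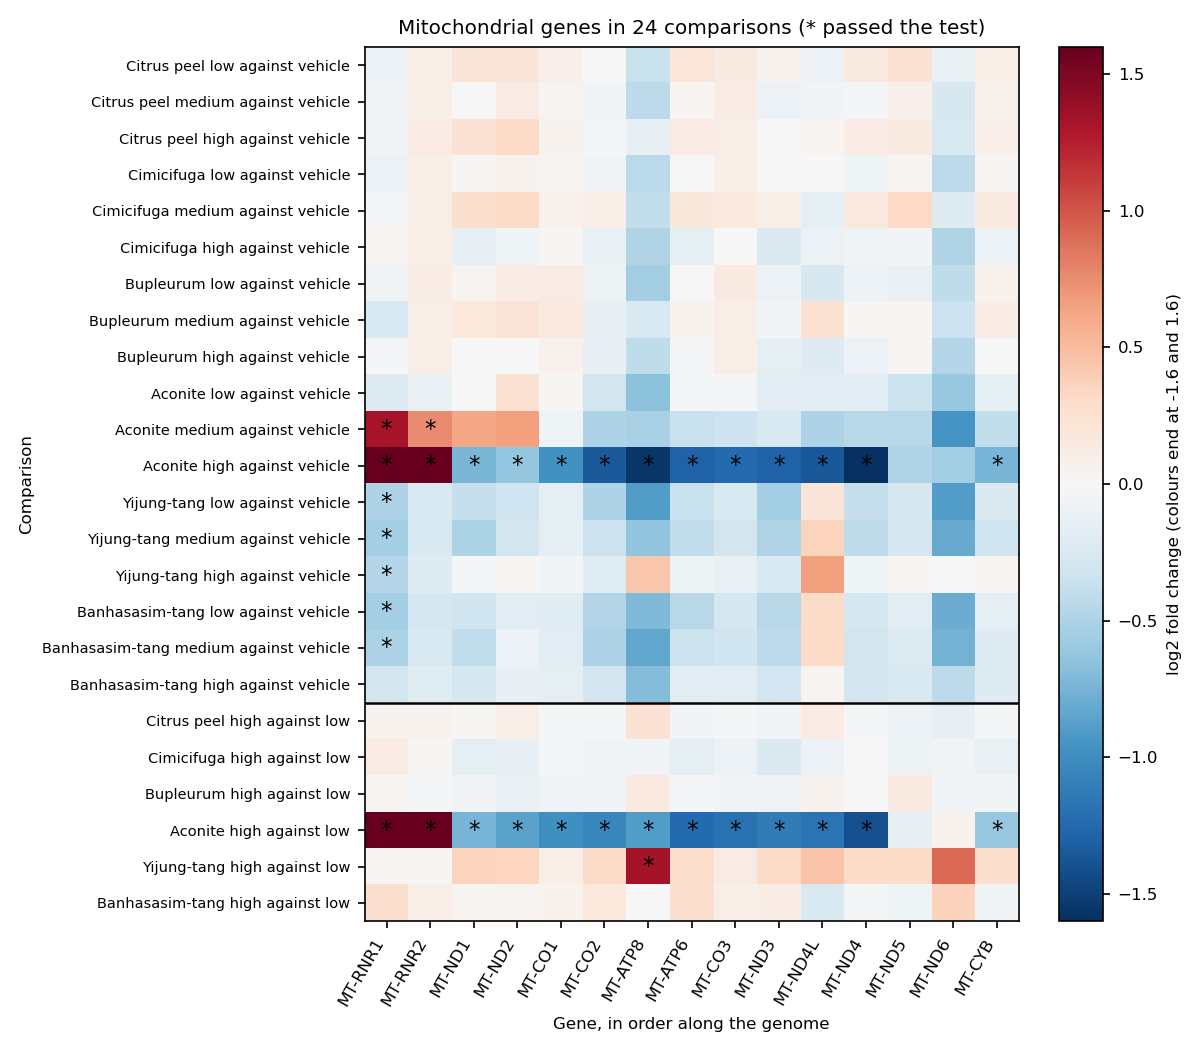
Fitted log2 fold change (colour, ending at -1.6 and 1.6) of the 15 tested genes in genome order for 18 comparisons of an extract with vehicle (above the line) and 6 of high with low dose (below it); asterisks mark edgeR adjusted p under 0.05. Asterisks on mRNAs appear in aconite high against vehicle, aconite high against low, and for MT-ATP8 in Yijung-tang high against low.

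Citrus peel, cimicifuga and bupleurum changed 0 of 15 members against vehicle at any of the 3 doses by edgeR or DESeq2, while edgeR called 0.0303%, 0% and 0.00607% of all genes in citrus peel from high to low dose, 1.28%, 0.00607% and 0% in cimicifuga, and 1.48%, 0.376% and 0.776% in bupleurum. Of these 9 comparisons, 7 had 0 members at an unadjusted p under 0.05, and bupleurum medium and bupleurum low had 1 each. All fitted log2 fold changes lay between -0.56 and 0.32. High against low dose of citrus peel and of cimicifuga also gave 0 of 15 by both tools, with 0 at an unadjusted p under 0.05, beside 0.0667% and 0.874% of all genes, and their difference in that change likewise gave 0 of 15 by both tools, with 0 unadjusted, beside 0.103%.

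In library set 7, MT-RNR1 fell against vehicle in 5 of 6 groups. It had 1004, 986.2 and 885.2 CPM in Yijung-tang high, a log2 fold change of -0.47 ± 0.10 (edgeR adjusted p = 0.0129). It had 878.1, 948.7 and 901.2 CPM in Yijung-tang medium (-0.54 ± 0.10, edgeR adjusted p = 0.00443) and 993.2, 911.3 and 914.6 CPM in Yijung-tang low (-0.50 ± 0.10, edgeR adjusted p = 0.00955). All 9 of these libraries lay below the lowest vehicle library. In Banhasasim-tang it had 812.9, 1011 and 973.7 CPM at the medium dose (-0.51 ± 0.10, edgeR adjusted p = 0.00345) and 874.2, 913.4 and 929.2 CPM at the low dose (-0.55 ± 0.10, edgeR adjusted p = 0.00135). At its high dose the values were 947.0, 1304 and 988.9 CPM, with -0.29 ± 0.10 (edgeR adjusted p = 0.176), and replicate 2 lay among the vehicle libraries. Each of the 5 groups had 1 of 15 members called, beside 1.1%, 1.6% and 1.46% of all genes for Yijung-tang from high to low and 2.9% and 2.87% for Banhasasim-tang medium and low. Banhasasim-tang high had 0 of 15 by edgeR and DESeq2, with 3 at an unadjusted p under 0.05, beside 1.19%, and 1 of 15 without its replicate 2.

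Vehicle replicate 1, the highest vehicle library for MT-RNR1, mattered to these calls. Without it the log2 fold changes of MT-RNR1 were -0.41, -0.48 and -0.44 in Yijung-tang high, medium and low and -0.45 in Banhasasim-tang medium, and the edgeR adjusted p rose to 0.143, 0.0892, 0.148 and 0.0555. Calls were also lost without Yijung-tang high replicate 3 (-0.42, edgeR adjusted p = 0.1104), Yijung-tang low replicate 2 (-0.48, 0.0647) or 3 (-0.48, edgeR adjusted p = 0.0814) and Banhasasim-tang medium replicate 1 (-0.42, edgeR adjusted p = 0.0585). The call in Banhasasim-tang low held in all alternatives, with a highest adjusted p of 0.0287. MT-RNR1 did not pass between high and low dose of Yijung-tang (0.03 ± 0.10, edgeR adjusted p = 1) or Banhasasim-tang (0.25 ± 0.10, edgeR adjusted p = 0.182).

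Messenger RNAs lay below vehicle without overlap for 11 of 13 in Yijung-tang medium, 9 in Yijung-tang low, 6 in Banhasasim-tang medium and 8 in Banhasasim-tang low, beside 13.4%, 14.1%, 13.9% and 14.4% of all genes, and none of them was called by edgeR. DESeq2 called MT-CO2 in Yijung-tang low (-0.50, adjusted p = 0.0360), Banhasasim-tang medium (-0.49, adjusted p = 0.0382) and Banhasasim-tang low (-0.47, adjusted p = 0.0435). It also called MT-ATP8 in Yijung-tang low (-0.91, adjusted p = 0.0292) and Banhasasim-tang medium (-0.83, adjusted p = 0.0428), and MT-RNR2 in Banhasasim-tang low (-0.28, adjusted p = 0.0339). The edgeR log2 fold changes of the messenger RNAs in these 4 groups had medians from -0.36 to -0.28. The lowest were of MT-ATP8 in Yijung-tang low (-0.90 ± 0.27, edgeR adjusted p = 0.0737) and of MT-ND6 in the same group (-0.89 ± 0.30, edgeR adjusted p = 0.107).

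Both ribosomal RNAs were low over set 7, and so were most messenger RNAs. Of its 18 libraries 17 were below the lowest vehicle library for MT-RNR1 (812.9 to 1304 CPM, median 938.1) and 18 for MT-RNR2 (8110 to 9694 CPM, median 8896). The number was 16 for MT-CO2 and MT-CO3, 15 for MT-ND5, and 14 for MT-CO1, MT-ATP6, MT-ND3, MT-ND4 and MT-ND6. For MT-ND2 it was 13, for MT-ND1 10, and for MT-ATP8 and MT-CYB 9. In set 5, citrus peel and cimicifuga, MT-RNR1 ranged from 1094 to 1458 CPM, with 5 of 18 libraries below the lowest vehicle library, and MT-RNR2 from 10170 to 12830 CPM, with 0 of 18. MT-ND4L moved the other way in set 7, with 14 of 18 libraries above the highest vehicle library (514.5 to 1915 CPM, median 1171), against 1 of 18 in set 5. The extract and the library set cannot be told apart in these differences from vehicle.

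Yijung-tang had 1 further call. MT-ATP8 had 1189, 413.5 and 811.5 CPM at the high dose and 327.2, 283.5 and 350.4 at the low dose, a log2 fold change of 1.33 ± 0.28 (edgeR adjusted p = 0.0397). The 3 libraries of the high dose lay above those of the low dose but spread over nearly a 3-fold range. It was the only 1 of 15 members called between these doses, beside 0.0849% of all genes, and it failed without any 1 of the libraries other than Yijung-tang high replicate 2, with values from 0.94 to 1.40 and edgeR adjusted p from 0.109 to 0.704, and with only the 2 groups in the model (adjusted p = 0.387). The high dose lay above the low dose without overlap for 9 of 13 messenger RNAs, beside 8.13% of all genes. MT-ND6 (0.90 ± 0.30, edgeR adjusted p = 0.510) and MT-ND4L (0.46 ± 0.21, edgeR adjusted p = 0.834) did not pass. Banhasasim-tang had 0 of 15 called between high and low dose by edgeR and DESeq2, with 1 at an unadjusted p under 0.05, beside 0.218%. The test of Banhasasim-tang minus Yijung-tang called 0 of 15 by both tools, with 2 at an unadjusted p under 0.05, beside 0% of all genes, and gave -1.32 ± 0.39 for MT-ATP8 (edgeR adjusted p = 0.536).

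Bojungikgi-tang had 1 library per dose, so its values have no replicate check and no test. MT-RNR1 was at 891.6, 897.8 and 956.1 CPM from high to low dose, below the vehicle range of 1263 to 1430 CPM on the same scale. MT-RNR2 was at 8469, 8809 and 9544 CPM, below the vehicle range of 10040 to 11200. Over the 15 genes the log2 ratio of CPM + 1 to the vehicle mean ran from -0.95 (MT-ND6) to 0.27 (MT-ND4L) at the high dose, from -1.06 (MT-ATP8) to 0.18 (MT-ND4L) at the medium dose and from -0.71 (MT-ND6) to 0.24 (MT-ND4L) at the low dose. At the high dose 14 of the 15 genes lay below the lowest vehicle library and 1 above the highest, at the medium dose 7 and 0, and at the low dose 5 and 2. The share of all genes outside the vehicle range was not counted, so nothing can be concluded from these counts about the 15 genes. These libraries form a set of their own, which cannot be told apart from the extract.

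The genome holds many nuclear copies of mitochondrial genes, whose reads can be shared with the mitochondrial gene by the counting program. Of the ribosomal RNAs, 13 copies of MT-RNR2 (the MTRNR2L genes) were in the table, matched by identifier to GENCODE. None (0) reached 1 CPM on average, the highest value in any library being 0.661 CPM (MTRNR2L4), and MTRNR2L4, the 1 that could be tested, gave 0.87 ± 0.51 in aconite high against vehicle (edgeR adjusted p = 0.278). No copy of MT-RNR1 was matched by name. Of 391 copies of protein and transfer RNA genes in the table, 4 had at least 1 CPM on average. MTATP6P1 (chromosome 1, 633696 to 634376, plus strand), 98.5% identical to MT-ATP6, had 928.6 CPM on average, MTND2P28 (98.2% identical to MT-ND2) 158.8, MTCO1P12 (98.6% identical to MT-CO1) 52.4 and MTND4P12 (95.6% identical to MT-ND4) 5.72. In aconite high against vehicle, MTATP6P1 (-0.98 ± 0.16, edgeR adjusted p = 1.61e-05), MTCO1P12 (-0.87 ± 0.19, edgeR adjusted p = 0.00101) and MTND4P12 (-1.95 ± 0.38, edgeR adjusted p = 0.000301) fell, as did their mitochondrial counterparts. In aconite medium, MTND2P28 rose by 0.97 ± 0.16 (edgeR adjusted p = 5.02e-05), in the direction of MT-ND2, and at the high dose it was at -0.36 ± 0.16 (edgeR adjusted p = 0.124). MTND4P12 and MT-ND4 did not always go together: the copy fell at the low dose (-1.38 ± 0.35, edgeR adjusted p = 0.0295), where MT-ND4 was at -0.18 (edgeR adjusted p = 0.647), and was at -0.56 ± 0.41 between high and low dose (edgeR adjusted p = 0.419), where MT-ND4 fell. Values of these 4 mitochondrial genes are less certain by the reads that may have been assigned to the copies.

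Nuclear genes that act on mitochondrial RNA are given first for aconite high against vehicle, where 8.47% of all genes rose and 7.18% fell. The counts below stand beside these shares. Of the 9 genes listed under mitochondrial transcription, including the RNA polymerase POLRMT and the terminator protein MTERF1, 0 were called by edgeR or DESeq2, with 1 at an unadjusted p under 0.05. Their median log2 fold change was 0.07 beside 0 for all genes. Of 16 factors of RNA processing and polyadenylation, 3 rose: MTO1, a transfer RNA modification enzyme (0.30 ± 0.06, edgeR adjusted p = 0.000840), PRORP (0.24 ± 0.07, edgeR adjusted p = 0.0192) and ELAC2 (0.14 ± 0.05, edgeR adjusted p = 0.0362), the nucleases that cut transfer RNAs at the 5′ and 3′ end. Of 16 factors of RNA stability and decay, 4 rose: FASTKD1 (0.32 ± 0.09, edgeR adjusted p = 0.00613), LRPPRC, which stabilises mitochondrial messenger RNAs (0.20 ± 0.06, edgeR adjusted p = 0.0127), TBRG4 (0.18 ± 0.05, edgeR adjusted p = 0.0150) and FASTKD3 (0.30 ± 0.10, edgeR adjusted p = 0.0268).

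Of 16 genes of mitochondrial DNA replication and maintenance 1 rose, the nucleotide carrier SLC25A36 (0.28 ± 0.08, edgeR adjusted p = 0.0105). Of 8 tested biogenesis regulators, a list that shares TFAM with the transcription list, 0 were called by edgeR or DESeq2, with 0 at an unadjusted p under 0.05. The 78 nuclear subunits of complexes I to IV and ATP synthase, the partners of the mitochondrial messenger RNAs' products, had 0 called by edgeR and 1 by DESeq2, with 4 at an unadjusted p under 0.05, and a median of 0.03. Of 13 tested genes of the mitochondrial stress response, 8 rose and 1 fell. The largest rises were of TRIB3 (1.08 ± 0.07, edgeR adjusted p = 7.92e-16), DDIT3 (0.76 ± 0.12, edgeR adjusted p = 1.20e-05), GDF15 (0.69 ± 0.10, edgeR adjusted p = 5.68e-07) and ATF4 (0.59 ± 0.06, edgeR adjusted p = 8.69e-10), which also respond to stress outside mitochondria, and ATF5, named because it was the only fall of the list, changed by -0.37 ± 0.12 (edgeR adjusted p = 0.0296).

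Between high and low dose of aconite, 5.77% of all genes rose and 5% fell. Of the 9 genes listed under mitochondrial transcription 1 rose, TFB1M (0.30 ± 0.09, edgeR adjusted p = 0.0267), which DESeq2 also called. Of the processing factors 3 of 16 rose, of the stability factors 2 of 16, and of the replication genes 1 rose (TOP1MT, 0.25 ± 0.08, edgeR adjusted p = 0.0415) and 1 fell (POLG, -0.21 ± 0.05, edgeR adjusted p = 0.00627). Of the nuclear subunits 2 of 78 rose, SDHB (0.40 ± 0.12, edgeR adjusted p = 0.0228) and ATP5F1B (0.25 ± 0.08, edgeR adjusted p = 0.0467), with a median of 0.18 beside 0.01 for all genes. Of the stress response genes 6 of 13 rose, and of the biogenesis regulators 0 of 8 were called by edgeR or DESeq2, with 1 at an unadjusted p under 0.05. For the high-against-low change of aconite minus that of bupleurum, 0.977% of all genes were called higher and 0.764% lower. There edgeR called 3 of 13 stress response genes, all higher. It called 0 of 9 transcription, 0 of 16 processing, 0 of 16 stability, 0 of 16 replication, 0 of 8 biogenesis and 0 of 78 subunit genes. DESeq2 called 1 replication gene besides. In bupleurum high against vehicle 2 of 16 processing factors rose, beside 0.722% of all genes higher.

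RNAs listed here as possible measures of RNA quality differed in part between aconite high and the groups compared. Replication-dependent histone messenger RNAs, which lack an A tail, summed to 305.3 to 326.3 CPM in aconite high and 356.9 to 385.4 CPM in vehicle. These CPM are on raw totals, of which mitochondrial counts took a larger part in aconite high. By edgeR, on TMM-scaled totals, 10 of 30 tested fell while 0 rose (median log2 fold change -0.54), beside 7.18% of all genes lower and 8.47% higher. Between high and low dose of aconite 6 of 30 fell and 0 rose (median -0.38), beside 5% of all genes lower and 5.77% higher. Cytosolic ribosomal protein messenger RNAs had 1 of 78 called against vehicle, RPL4 (0.23 ± 0.08, edgeR adjusted p = 0.0351), with a median of 0.09, and 6 of 78 rose between high and low dose, with a median of 0.26. RN7SL2 was at 64.7, 204.1 and 52.2 CPM in aconite high and 68.4, 81.2 and 119.1 in aconite low, so the groups overlapped through aconite high replicate 2, and without it both high-dose libraries lay below the low dose. The parts of RNA quality and of growth in these differences and in the aconite result were not tested.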

How the data were processed

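Estimated counts per gene, made by the authors with RSEM and not normalized, were the unit of the deposited table. Per the submitters' processing notes, reads were handled with Trim Galore 0.6.5 and FastQC 0.11.9, STAR 2.7.3a and RSEM 1.3.3, and the build was GRCh38. Which annotation release and which counting settings were used is not given in the sources used here. Per the labels' protocols, RNA with an integrity number above 7 (1 µg) went into a strand-marking mRNA kit with paired reads of 100 bp. Of 270 columns, 60 were matched to labelled samples and 210 were not used; 8.68% of values were not whole and all were rounded. No row (0) named anything but a gene. Symbols matched 56558 identifiers and GENCODE release 29 coordinates 57055.

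In edgeR 4.0.16 under R 4.3.3, filterByExpr kept 16485 genes, TMM factors scaled them, and robust quasi-likelihood models were fitted to 57 libraries of 19 groups (biological coefficient of variation 8%), since a shared fit gives a shared estimate of spread. P-values were adjusted over all genes within each of 27 comparisons (Benjamini-Hochberg, threshold 0.05): 18 with vehicle, 6 of high with low dose, and 3 differences between extracts of the same library set. The test was tried on simulated data. CPM of the mitochondrial genes use TMM-scaled totals. Shares, and CPM of RN7SL2, histones, cell type markers and nuclear copies, use raw totals. SE is the absolute log2 fold change over the square root of F. Any mitochondrial gene could be named, nuclear copies with at least 1 CPM on average, and from the other lists at most the 4 called members of lowest adjusted p, except those marked. Members and lists were chosen with earlier results of these data known. Alternatives were RLE size factors, scaling on nuclear genes, no low-count filter, DESeq2 1.42.0, the compared groups alone, a replicate block, leaving out each library, and, chosen after seeing the data, leaving out 4 libraries that stand apart from their groups. Sequences of the reference only were used.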

Additional observations from a re-analysis of the deposited data

Results flagged for a closer look

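In 9 of 15 genes the change from low to high dose differed between aconite and bupleurum, extracts of the same library set, by the edgeR test of that difference (Benjamini-Hochberg adjusted p under 0.05). The difference, aconite minus bupleurum on the log2 scale, was 4.74 for MT-RNR1, 3.43 for MT-RNR2, -1.41 for MT-ND4, -1.23 for MT-ATP6, -1.22 for MT-ND4L, -1.16 for MT-CO3, -1.06 for MT-ND3, -1.01 for MT-CO2 and -0.92 for MT-CO1. Both rRNAs, MT-CO3, MT-CO1, MT-CO2 and MT-ND4 passed without any single library, whereas MT-ATP6, MT-ND4L and MT-ND3 did not.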

How the results depend on the processing

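RLE size factors and scaling on nuclear genes changed none of the 27 counts of called members and none of the calls of the 60 gene results examined, whose log2 fold changes moved by at most 0.01. No gene result changed sign between the main fit and an alternative where it passed in either. Among results that passed in neither, signs did turn in aconite high against low: MT-ND6 ranged from -0.39 to 0.43 and MT-ND5 from -0.30 to 0.12. When the model held no other groups than those compared, which leaves fewer libraries to estimate the spread, the count was 6 instead of 13 in aconite high against vehicle, 6 instead of 2 in aconite medium against vehicle, 2 instead of 13 in aconite high against low, 3 instead of 9 in aconite minus bupleurum and 0 instead of 1 in Yijung-tang high against low; both rRNAs passed in each of the aconite fits. DESeq2 gave 5 instead of 2 in aconite medium and 3 instead of 1 in Yijung-tang low, Banhasasim-tang medium and Banhasasim-tang low against vehicle.

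Without the low-count filter more members were called against vehicle, and the cause was not tested. Calls over all genes moved too, from 5, 0 and 1 to 353, 496 and 364 in citrus peel from high to low dose. They went from 740 to 1142 in aconite medium, but from 2580 down to 2169 in aconite high against vehicle. Without the filter they were 581, 235 and 319 in cimicifuga and 784, 873 and 615 in bupleurum from high to low. In Yijung-tang they were 489, 673 and 901 from high to low, in aconite low 676 and in Banhasasim-tang high 409. The counts of called members were 1 in citrus peel at each dose, and 2, 3 and 2 in cimicifuga and 2, 2 and 3 in bupleurum from high to low. Member counts were 14 in aconite medium and 4 in aconite low, and 3, 14 and 12 in Yijung-tang and 7, 11 and 11 in Banhasasim-tang from high to low. They were 10 in Yijung-tang and 4 in Banhasasim-tang high against low, and 3 in their difference. Without the 4 libraries that stand apart, Banhasasim-tang high gave 1 instead of 0.

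Leaving out single libraries gave 10 to 14 calls in aconite high against vehicle, 2 to 3 in aconite medium, 9 to 13 in aconite high against low and 6 to 9 in aconite minus bupleurum. It gave 0 to 1 in Yijung-tang high and medium, 0 to 3 in Yijung-tang low, 0 to 1 in Banhasasim-tang high, 0 to 2 in Banhasasim-tang medium and 1 to 2 in Banhasasim-tang low, and 0 to 1 in high against low of both mixtures. The highest counts of Yijung-tang low and of Banhasasim-tang medium and low came without vehicle replicate 3, that of Banhasasim-tang high without its replicate 2, and that of Banhasasim-tang high against low without high replicate 3. A group left with 2 libraries takes its spread from the shared fit.

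With the replicate number as a block, the counts stayed within 1.5 times in all 27 comparisons, with 14 in aconite high against vehicle, where MT-ND5 passed (-0.50, edgeR adjusted p = 0.0404), and 3 in aconite medium, where MT-ND2 passed (0.65, edgeR adjusted p = 0.0461). By their deviations over all genes the numbers did not pass as a pairing: in 0 of 24 comparisons did every same-numbered pair deviate together with a correlation above 0.1 (r from -0.46 to 0.42). This bound cannot exclude a part shared by replicate number. Of the 13 messenger RNAs, replicate 3 was lowest for 13, 12 and 11 in aconite high, medium and low, but for 3 in vehicle. In 2 of 24 comparisons every library correlated best with its own number, a hint from the data and not from the design. RN7SL2 differed by replicate number in set 5. At these depths counting error is small for the 15 tested genes, and the tRNAs cannot be compared.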
